A study of Mus musculus with 75 samples.

Results

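The comparison rests on 4 libraries, of RelA-WT cells after 1 h and after 3 h of TNF, with 2 libraries at each time, 1 from each of 2 deposited sets, out of 75 libraries in all. They were chosen by their labels, and each 3 h library was compared with the 1 h library of its own set. The cells were mouse embryonic fibroblasts of the C57BL/6 strain, genotype p53-/-crel-/-rela-/-, so every group shared the loss of p53, c-Rel and RelA. The gene for wild-type RelA (RelA-WT), a RelA mutant or nothing (EV, the empty vector) had been put back with the retroviral plasmid pBABE-puro, so RelA was driven from a vector and not from its own locus. All cells had spent a night in 0.5% bovine calf serum. They then received 10 ng/ml of TNF, tumor necrosis factor, except those of 0 h, which received none. RelA-WT libraries of 0 h, 0.5 h and 8 h, 2 per time, gave the levels at other times. Those of 0 h and 0.5 h also served to define groups of genes. The comparison groups were EV, RelA-dTAD and RelA-dTA1 at the same times, with 2 libraries per time, and 7 further RelA mutants with 1 library per time. The labels give the cells as primary, do not say whether replicates were separate cultures, and name no cells kept without TNF for 1 h or 3 h, so a change between these times includes any change with time alone. The p-values therefore reflect library-to-library spread alone, which may be technical.

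TNF frees NF-kB dimers that contain RelA from their inhibitors, and RelA then binds kB sites and switches on genes for cytokines, adhesion molecules and its own inhibitors. In fibroblasts the messages of the first wave, such as those of immediate early genes and neutrophil-attracting chemokines, are typically short-lived. Genes of a second wave need longer to appear, among them genes that new proteins or secreted interferon switch on. The comparison of 3 h with 1 h shows which messages had fallen from the first wave and which rose only afterwards.

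Rela itself was at 1261 and 1538 CPM at 1 h and 1154 and 1461 CPM at 3 h in RelA-WT cells, and at 22.2 and 16.6 CPM at 1 h and 24.3 and 20.4 CPM at 3 h in EV cells. The RelA-WT libraries were far above the EV libraries at both times, and the change of Rela between the times was not called, at log2 -0.10 ± 0.21 (SE; adjusted p = 0.793). The 4 libraries held 5219232 and 12261896 reads at 1 h and 5095855 and 10801332 reads at 3 h (sets 1 and 2). Levels below are CPM, the reads of a gene over the total of its library, with totals adjusted between libraries by TMM scaling, in set 1 and set 2 in that order. All 13 fibroblast markers looked at were detected in each of the 4 libraries. Of 9 macrophage markers, 3 could be tested and none was called; their summed level was 7.36 and 5.94 CPM at 1 h and 7.12 and 5.91 CPM at 3 h, with Adgre1, Itgam and Fcgr1 at 0. Of 5 T cell markers none could be tested; Cd3e, Cd3g, Cd4 and Cd8a were at 0 and the sum stayed under 1 CPM. Of 7 endothelial markers, 3 were high enough to be tested (1 higher, 1 lower), and the summed level of the 7 was 64.5 and 74.2 CPM at 1 h and 162 and 137 CPM at 3 h. Flt1, which encodes a receptor of vascular endothelial growth factor, was at 26.8 and 32.8 CPM at 1 h and 129 and 86.8 CPM at 3 h, while Pecam1, Cdh5, Vwf and Emcn stayed under 1 CPM in each library. Of 7 neural markers, 4 could be tested and 1 was lower. The 7 summed to 267 and 247 CPM at 1 h and 201 and 199 CPM at 3 h. Across the RelA-WT libraries of all times, Map2 ranged from 79.1 to 190 CPM, Nes from 32.25 to 56.2 CPM and Tubb3 from 28.9 to 38.25 CPM. Of 7 epithelial and 6 muscle markers, 3 and 2 could be tested and none was called. What part other cell types have in the results was not tested.

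Of 13665 genes tested, 1940 (14.2%) were higher at 3 h than at 1 h in RelA-WT cells and 1647 (12.1%) were lower, by edgeR's quasi-likelihood test with the set as a block and an adjusted p under 0.05. At least 2-fold changes were fewer, with 396 genes higher and 242 lower, and at least 4-fold changes numbered 115 and 33. In 3320 of the 3587 called genes the 1 h and 3 h libraries did not overlap. These genes were called from the same libraries, and the share over all genes tested was not counted, so this count is no further support. The same holds for each named gene below whose libraries are said not to overlap, which describes its values only. The median change over all genes tested was -0.02 on the log2 scale. Without the set block, 1071 genes were called higher and 627 lower, and with 1 or both RelA-WT libraries of a set left out, 1034 to 1576 and 665 to 1042. Both sets gave changes of like size: over the genes that rose at least 2-fold the median log2 change was 1.32 in set 1 and 1.23 in set 2, and over those that fell at least 2-fold it was -1.103 and -0.98. These medians describe genes chosen in the same libraries.

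The early genes were defined in other libraries, as the 154 genes (1.13% of those tested) that were higher at 0.5 h than at 0 h. Of these, 97 (63.0%, against 12.1% of all genes tested) were lower at 3 h than at 1 h, 10 (6.49%, against 14.2%) were higher and 47 were neither. The median log2 change of the 154 was -0.68. Of the 97 that fell, 56 had their highest mean at 1 h and 37 at 0.5 h. For the 95 of them whose mean at 1 h lay above that at 0 h, the median share of the rise still present at 3 h was 18.8%, with quartiles of 3.75% and 40.3%. In 19 the 3 h mean was at or below the 0 h mean.

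The inhibitors of NF-kB that appear first were among the early genes that fell. Nfkbia, which encodes the inhibitor IkBα, rose from 48.97 CPM at 0 h to 736 CPM at 0.5 h (means), and was at 1066 and 969.5 CPM at 1 h and at 479 and 446 CPM at 3 h, a log2 change of -1.14 ± 0.13 (SE; adjusted p = 9.12e-07). Tnfaip3, which encodes the ubiquitin-editing enzyme A20, was at 1000.0 and 689.8 CPM at 1 h and 418 and 276 CPM at 3 h, a log2 change of -1.29 ± 0.18 (SE; adjusted p = 1.56e-05). In both genes the 2 libraries of 1 h lay above the 2 of 3 h, and the share of the rise left at 3 h was 42.7% for Nfkbia and 39.5% for Tnfaip3. Both were still well above the 0 h level at 8 h, with means of 408 and 261 CPM. Irf1, which encodes a transcription factor that acts on interferon-response genes, followed the same course: it was at 936 and 952 CPM at 1 h and 481 and 468 CPM at 3 h, a log2 change of -0.99 ± 0.13 (SE; adjusted p = 6.54e-06).

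The neutrophil chemokines Cxcl1 and Cxcl2 fell further, while the related Cxcl3, Cxcl5, Cxcl15 and Ppbp were not called (log2 0.27, -0.08, 0.17 and -0.02). Cxcl2 was at 20.9 and 18.5 CPM at 1 h and 2.97 and 3.24 CPM at 3 h, a log2 change of -2.65 ± 0.28 (SE; adjusted p = 5.12e-09), and Cxcl1 was at 238 and 178 CPM at 1 h and 68.5 and 57.3 CPM at 3 h, a log2 change of -1.71 ± 0.32 (SE; adjusted p = 0.000404). Ccl20, a chemokine for lymphocytes and dendritic cells, was at 125 and 89.97 CPM at 1 h and 39.2 and 40.9 CPM at 3 h. No library of 3 h reached a library of 1 h in these 3 genes, but Ccl20 was back at a mean of 129 CPM at 8 h. Sele, which encodes the leukocyte adhesion molecule E-selectin, had risen from 2.33 CPM at 0 h to 439.8 and 454 CPM at 1 h and 73.02 and 71.04 CPM at 3 h, and 15.7% of its rise was left. Tnfsf9, which encodes the ligand 4-1BBL, was at 57.2 and 54.6 CPM at 1 h and 5.34 and 5.25 CPM at 3 h, a log2 change of -3.43 ± 0.18 (SE; adjusted p = 3.01e-16), with 4.76% of its rise left. Csf2 and Edn1, which encode the growth factor GM-CSF and the vessel-constricting peptide endothelin, were among the 12 largest falls, at log2 -2.79 ± 0.41 and -3.07 ± 0.38.

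The promoters of 6 genes are shown because 3 of them belong to the early and 3 to the late wave. They were chosen after the values were seen. A kB-like motif was set beforehand for the 3 early genes and an ISRE-like motif for the 3 late ones. Only promoters that held the motif set for their gene are shown. That each gene holds its motif was thus fixed by the choice and supports nothing. Each line gives the 250 bases before a start site, 5′ to 3′ on the gene's strand, from RefSeq promoters of GRCm38.p6 (the assembly that mm10 also names). Capitals mark a kB-like motif (GGNNTTTCC), an ISRE-like motif (GAAANNGAA, the core of interferon-stimulated response elements) or an AP-1-like motif (TGANTCA), each searched on both strands.
Nfkbia (chr12:55492648-55492897, minus strand): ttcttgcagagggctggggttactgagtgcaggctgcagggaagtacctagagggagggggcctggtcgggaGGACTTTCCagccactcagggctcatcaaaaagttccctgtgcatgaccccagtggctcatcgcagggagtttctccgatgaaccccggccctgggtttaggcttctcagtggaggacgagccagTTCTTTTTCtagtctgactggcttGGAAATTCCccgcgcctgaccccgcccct
Tnfaip3 (chr10:19015411-19015660, minus strand): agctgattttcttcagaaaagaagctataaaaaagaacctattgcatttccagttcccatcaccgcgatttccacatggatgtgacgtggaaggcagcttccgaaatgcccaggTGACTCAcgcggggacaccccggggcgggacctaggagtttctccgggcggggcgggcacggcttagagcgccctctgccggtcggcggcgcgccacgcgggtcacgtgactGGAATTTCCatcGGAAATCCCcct
Cxcl2 (chr5:90903649-90903898, plus strand): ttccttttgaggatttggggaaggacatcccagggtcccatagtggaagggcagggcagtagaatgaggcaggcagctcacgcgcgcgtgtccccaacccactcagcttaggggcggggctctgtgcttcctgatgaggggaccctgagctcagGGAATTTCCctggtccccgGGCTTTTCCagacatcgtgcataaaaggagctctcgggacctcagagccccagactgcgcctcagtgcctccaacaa
Ifit1 (chr19:34640639-34640888, plus strand): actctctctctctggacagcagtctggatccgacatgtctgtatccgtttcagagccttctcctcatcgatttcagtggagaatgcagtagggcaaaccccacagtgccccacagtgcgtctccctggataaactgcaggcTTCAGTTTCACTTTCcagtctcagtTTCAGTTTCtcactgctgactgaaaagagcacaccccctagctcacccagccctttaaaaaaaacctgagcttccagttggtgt
Cd274 (chr19:29367188-29367437, plus strand): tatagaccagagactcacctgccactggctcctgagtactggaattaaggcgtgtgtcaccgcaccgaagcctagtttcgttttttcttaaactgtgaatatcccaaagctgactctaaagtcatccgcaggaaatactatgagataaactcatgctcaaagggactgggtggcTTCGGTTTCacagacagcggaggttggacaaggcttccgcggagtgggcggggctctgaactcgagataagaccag
Rsad2 (chr12:26456453-26456702, minus strand): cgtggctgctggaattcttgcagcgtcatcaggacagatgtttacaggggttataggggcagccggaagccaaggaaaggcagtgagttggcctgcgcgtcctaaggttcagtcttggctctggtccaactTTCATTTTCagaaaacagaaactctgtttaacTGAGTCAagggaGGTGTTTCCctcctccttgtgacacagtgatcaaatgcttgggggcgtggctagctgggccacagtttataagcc
The early genes Nfkbia, Tnfaip3 and Cxcl2 each held 2 kB-like motifs in this window, starting 178 and 29, 24 and 12, and 96 and 77 bases before the start site. The late genes Ifit1, Cd274 and Rsad2 held 3, 1 and 1 ISRE-like motifs, and of these 3 only Rsad2 also held a kB-like motif. The ISRE-like matches of Ifit1 that start 109 and 103 bases before the start site overlap. Nfkbia held an ISRE-like match as well. Over all 32851 promoters of the table, 4.93% held a kB-like, 7.13% an ISRE-like and 6.75% an AP-1-like motif in the same window. A match is a run of letters and not a measured binding site. The table held a promoter for 76.4% of the genes tested, so shares over the early and late groups would be void and are not given.

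The immediate early genes, whose transcription needs no new protein, fell as a list. Of 50 measured, 32 were lower at 3 h and none higher, beside 12.1% lower and 14.2% higher over all genes tested. The median log2 change was -0.70 beside -0.02 over all genes tested. Of the 50, 40 were among the early genes, which held 1.13% of the genes tested. Nr4a1, which encodes a nuclear receptor, was at 242 and 151 CPM at 1 h and 12.7 and 13.2 CPM at 3 h, the largest fall among the genes named by rule at log2 -3.85 ± 0.39 (SE; adjusted p = 2.28e-07). Fosb, an AP-1 subunit, was at 26.8 and 29.9 CPM at 1 h and 2.18 and 2.48 CPM at 3 h and Egr4, a zinc finger factor, at 6.23 and 7.4 CPM at 1 h and 0.198 and 0.667 CPM at 3 h. In all 3 the 3 h libraries were far below the 1 h libraries, and Nr4a1 and Fosb were below their means at 0 h. Egr3 fell by 2.90 on the log2 scale.

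Feedback genes of MAP kinase signalling were among those that fell. Of 18 phosphatases of MAP kinases and inhibitors of ERK signalling, 10 were lower and none higher (median log2 -0.45). Spry4, an inhibitor of receptor tyrosine kinase signalling, was at 37.7 and 37.2 CPM at 1 h and 16.2 and 16.2 CPM at 3 h, and Dusp14, a MAP kinase phosphatase, at 14.2 and 13.3 CPM at 1 h and 5.34 and 6.58 CPM at 3 h. Smad7, the inhibitor of TGF-β receptors, was at 82.1 and 78.8 CPM at 1 h and 28.9 and 27.6 CPM at 3 h, a log2 change of -1.51 ± 0.11 (SE; adjusted p = 1.45e-12). Of 27 genes of BMP, activin and TGF-β feedback, 9 were lower and 3 higher, against 5 lower and 2 higher without the set block. Btg2, an antiproliferative gene, was at 220.4 and 145 CPM at 1 h and 48.5 and 41.3 CPM at 3 h, and Pim1, a survival kinase, at 186 and 134 CPM at 1 h and 72.4 and 58.8 CPM at 3 h. Among 21 mRNA decay factors, 6 were lower and 4 higher, with 2 in each direction without the block. Over all 13665 genes tested 12.1% were lower and 14.2% higher, or 627 and 1071 genes without the block. Whether these lists differ from all genes was not tested. Zfp36, which encodes the mRNA-destabilizing protein tristetraprolin, had peaked at 0.5 h at a mean of 426 CPM and was at 83.2 and 113 CPM at 1 h and 48.7 and 67.1 CPM at 3 h, a log2 change of -0.75 ± 0.16 (SE; adjusted p = 0.00138) that lost its call without the block (adjusted p = 0.069) and without both libraries of set 2 (adjusted p = 0.0804). Dcp2, a decapping enzyme, went the other way, from 111 and 109 CPM, then 239 and 232 CPM (log2 1.103 ± 0.10 (SE; adjusted p = 1.83e-09)).

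**Figure D1:**
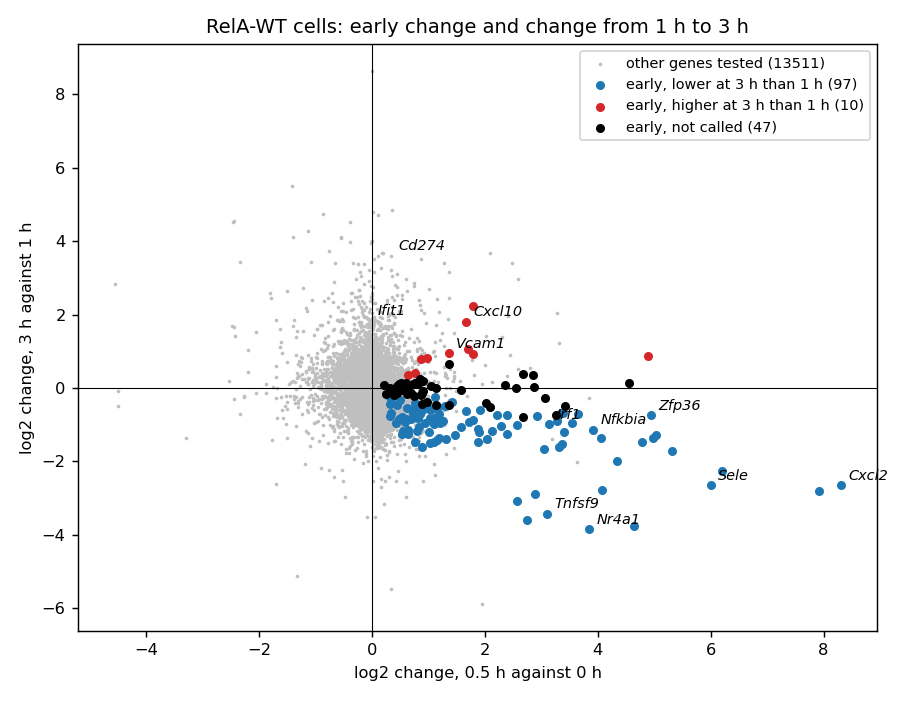
Each point is a gene in RelA-WT cells. The x axis gives the log2 change from 0 h to 0.5 h and the y axis the log2 change from 1 h to 3 h, from 2 pairs of groups with no library in common. Of 154 early genes, the 97 in blue were lower at 3 h, the 10 in red higher and the 47 in black neither, and Cxcl2, with 1 read over both 0 h libraries, lies at the far right.

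The 10 early genes that were still rising were Birc3, Cebpd, Ch25h, Cxcl10, Cxcl9, Il6, Rrad, Stx11, Tlr2 and Vcam1, listed whole after their values were seen. Cxcl10, a chemokine for T cells, had 60.2 CPM at 0 h and was at 460.3 and 439 CPM at 1 h and 1550.0 and 1578 CPM at 3 h, a log2 change of 1.804 ± 0.15 (SE; adjusted p = 1.47e-08). Cxcl9, which acts on the same receptor, was at 20.8 and 16.02 CPM at 1 h and 84.5 and 84.01 CPM at 3 h and reached 208 CPM at 8 h. Vcam1, an adhesion molecule for leukocytes, was at 1348 and 1411 CPM at 1 h and 2725 and 2566 CPM at 3 h, a log2 change of 0.94 ± 0.15 (SE; adjusted p = 9.44e-05). The 3 h libraries were above the 1 h libraries in each of these 3 genes. Il6 was at 4.34 and 2.2 CPM at 1 h and 6.93 and 4.48 CPM at 3 h, where the higher library of 1 h came close to the lower one of 3 h, and its call (adjusted p = 0.0454) was lost in DESeq2, without the block (adjusted p = 0.199) and without the 1 h library of set 2, the 3 h library of set 1 or either set (adjusted p up to 0.588).

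Late-start genes were those higher at 3 h than at 1 h whose fitted levels at 0.5 h and at 1 h were both less than 1.5 times the 0 h level. The rule sets no lower limit, and its 1 h libraries also enter the change from 1 h to 3 h. Few genes were called higher by then: of 13665 tested, 154 at 0.5 h and 614 at 1 h, against 0 h. The share of all genes tested that met both limits was not counted. The 1940 higher genes had a median log2 change of 0.53, so small rises are included. Late-start genes numbered 1760 of the 1940 genes that were higher, and 283 of the 396 that were higher at least 2-fold. Without the block they numbered 964, without the 1 h library of set 2 1144, without both libraries of set 1 1092 and without both of set 2 933. Of the 283, 165 had their highest mean at 3 h, 110 at 8 h, 7 at 0 h and 1 at 0.5 h. By 8 h, 45 of the 283 were below 0.5 times their 3 h level and 29 were above 2 times it, and the median ratio of 8 h to 3 h was 0.9004.

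Interferon-response genes were among the late-start genes, in lists chosen with earlier results known. Of 62 measured genes of the type I interferon response, 47 were higher and none lower (median log2 0.88), and 44 of the 62 were late-start. Over all 13665 genes tested, 14.2% were higher, 12.1% lower and 1760 late-start. Ifit1, which encodes an RNA-binding antiviral protein, was at 433 and 309.6 CPM at 1 h and 1404 and 1231 CPM at 3 h, a log2 change of 1.84 ± 0.25 (SE; adjusted p = 1.23e-05), from a mean of 367 CPM at 0 h. Rsad2, which encodes the antiviral enzyme viperin, was at 70.9 and 44.1 CPM at 1 h and 486 and 490.3 CPM at 3 h, a log2 change of 3.15 ± 0.30 (SE; adjusted p = 1.42e-07). Parp14, an ADP-ribosyltransferase, was at 110.0 and 94.9 CPM at 1 h and 619 and 663 CPM at 3 h, a log2 change of 2.66 ± 0.23 (SE; adjusted p = 2.39e-08). Mx1, an antiviral GTPase, was at 17.9 and 13.1 CPM at 1 h and 94.98 and 132 CPM at 3 h. In all 4 genes both libraries of 3 h lay above both of 1 h, and the mean at 0.5 h was within 1.5 times that at 0 h. Rsad2 had dropped to 159 CPM by 8 h, whereas Mx1 was at 117 CPM.

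Of 19 interferon-inducible GTPases, which act against intracellular pathogens, 17 were higher and none lower, with a median log2 of 2.19, or 2.09 with Gbp10, which had no read at 1 h, at its bound of 3 reads. Tgtp1 was at 3.02 and 1.22 CPM at 1 h and 16.4 and 14.8 CPM at 3 h and Tgtp2 at 4.91 and 3.58 CPM at 1 h and 27.9 and 31.6 CPM at 3 h. These genes have near-identical copies, so reads could be split between them. Gbp4 had 2 reads over both libraries of 1 h and 30 over those of 3 h, a ratio of 16.5 per read sequenced with a 95% counting interval of 4.19 to 142 (exact binomial). Of 25 genes of MHC class I presentation, 18 were higher and none lower (median log2 0.91). Over all genes tested the shares were 14.2% higher and 12.1% lower. Psmb8 and Psmb9, which encode subunits of the immunoproteasome, were at 15.3 and 17.2 CPM at 1 h and 58.6 and 77.05 CPM at 3 h and at 2.83 and 5.45 CPM at 1 h and 15.2 and 19.8 CPM at 3 h, and both went on to higher means at 8 h (164 and 35.3 CPM). H2 genes share long stretches of sequence and are uncertain one by one.

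Factors that carry interferon and cytokine signals rose with them. Of 15 IRF and STAT genes, 8 were higher and 1, Irf1, was lower. Stat5a was at 30.6 and 29.9 CPM at 1 h and 86.1 and 80.5 CPM at 3 h, a log2 change of 1.46 ± 0.11 (SE; adjusted p = 9.76e-13). Irf2, often a repressor of Irf1 targets, was at 32.3 and 35.1 CPM at 1 h and 80.5 and 91.2 CPM at 3 h, and Stat2, part of the factor that reads out type I interferon, at 158 and 176 CPM at 1 h and 329 and 420.4 CPM at 3 h. Of 15 genes of JAK-STAT feedback, 7 were higher and 2 lower. Jak2, a receptor-bound kinase, was at 105 and 103 CPM at 1 h and 294 and 227 CPM at 3 h and Socs1, an inhibitor of such kinases, at 12.1 and 15.3 CPM at 1 h and 41.95 and 45.01 CPM at 3 h. The 1 h and 3 h libraries did not overlap in these 5 genes.

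Cd274, which encodes the immune checkpoint ligand PD-L1, gave 1 of the largest rises, from 7.36 and 6.59 CPM, then 75.2 and 88.02 CPM (log2 3.60 ± 0.18 (SE; adjusted p = 3.01e-16)), after means of 5.17 and 6.99 CPM at 0 h and 0.5 h. Its mean was down to 23.1 CPM at 8 h. Nr3c2, which encodes the mineralocorticoid receptor, appeared in a single pulse: it was at 3.4 and 4.72 CPM at 1 h and 52.04 and 57.1 CPM at 3 h (log2 3.69 ± 0.22 (SE; adjusted p = 6.2e-15)) and back at 2.23 CPM at 8 h. Clic5, an intracellular chloride channel protein, was at 2.26 and 2.12 CPM at 1 h and 21.96 and 40.8 CPM at 3 h, and Npas2, a clock transcription factor, at 2.45 and 1.95 CPM at 1 h and 16.2 and 24.1 CPM at 3 h. Tnfsf10, which encodes the death ligand TRAIL, was at 0.566 and 0.407 CPM at 1 h and 7.92 and 14.8 CPM at 3 h, a log2 change of 4.72 ± 0.43 (SE; adjusted p = 1.17e-10). Itga2, an integrin subunit, and Dll1, a Notch ligand, had log2 changes of 3.41 ± 0.36 and 3.21 ± 0.38. Among these 7 genes the mean at 3 h was the highest of the 5 times for each.

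Of the 6 most abundant late-start genes, Ifit1, described above, rose most. Fstl1, a secreted glycoprotein, was at 3054 and 2791 CPM at 1 h and 3617 and 3028 CPM at 3 h and Ccnd2, a cyclin, at 962 and 1006 CPM at 1 h and 1111 and 1198 CPM at 3 h. The 3 h libraries overlapped the 1 h libraries for Fstl1 and lay just above them for Ccnd2, and their calls were lost without the block, among other settings (adjusted p of 0.443 and 0.19). Il6st, which encodes the shared receptor chain gp130, was at 901 and 931 CPM at 1 h and 1176 and 1259 CPM at 3 h and kept its call under each alternative (adjusted p up to 0.0128). Rnf213, which encodes a ubiquitin ligase, was at 674 and 575 CPM at 1 h and 999.7 and 1221 CPM at 3 h, a log2 change of 0.83 ± 0.27 (SE; adjusted p = 0.0267) that lost its call without either 1 h library, the 3 h library of set 2 or both libraries of either set (adjusted p up to 0.382).

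**Figure D2:**
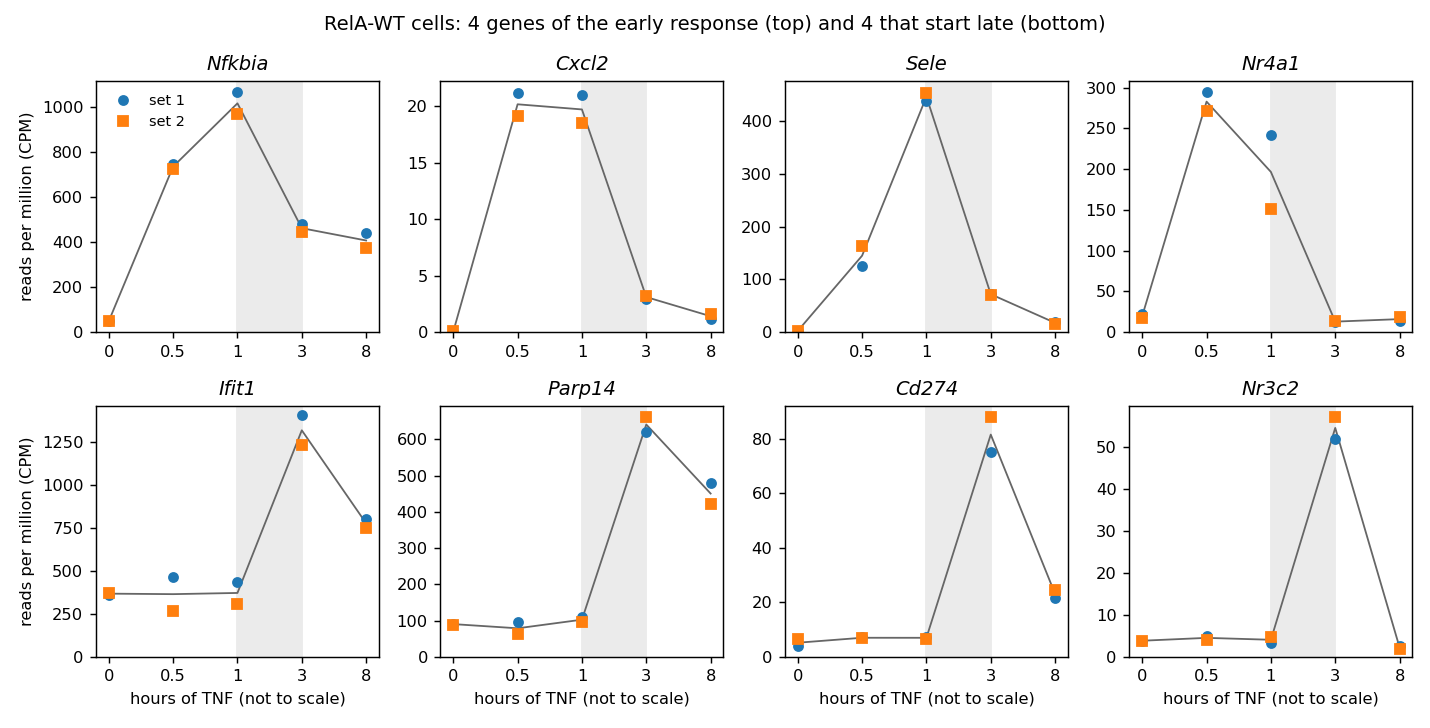
Levels in CPM (y axes, linear from 0) in RelA-WT cells at each time of TNF (x axis, not to scale), with 1 point per library and a line through the means. The grey band spans 1 h to 3 h: Nfkbia, Cxcl2, Sele and Nr4a1 fell across it in both sets, and Ifit1, Parp14, Cd274 and Nr3c2 rose.

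The other 180 genes that were higher at 3 h, 113 of them at least 2-fold, had already reached 1.5 times the 0 h level by 0.5 h or 1 h. Genes of NF-kB and its regulators were spread over both groups of rising genes. Of 27 genes of NF-kB subunits and signalling, 16 were higher (7 of them already started by 1 h, 9 late-start) and 3 lower (median log2 0.34). Among all genes tested 14.2% were higher and 12.1% lower. Nfkb2 and Nfkb1, which encode the p100 and p105 precursors, were at 156 and 206 CPM at 1 h and 407 and 433 CPM at 3 h and at 124 and 170.2 CPM at 1 h and 331 and 352 CPM at 3 h, log2 changes of 1.21 ± 0.08 and 1.202 ± 0.10. Ripk2, a kinase of innate immune signalling, was at 194 and 261 CPM at 1 h and 455 and 509 CPM at 3 h. Of 16 genes of NF-kB inhibitors and feedback, 8 were higher (4 of each kind) and 5 lower, against 4 and 3 without the block. Tnip1, which encodes an A20-binding inhibitor, was at 86.6 and 108 CPM at 1 h and 267 and 277 CPM at 3 h, and Nfkbie, which encodes the inhibitor IkBε, at 96.6 and 134 CPM at 1 h and 277 and 279 CPM at 3 h. Thus Nfkbia and Tnfaip3 were lower, and Tnip1 and Nfkbie higher, with no overlap between the times in any of the 4.

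Surface and secreted molecules divided in the same way. Of 16 leukocyte adhesion and immune surface genes, 11 were higher and 2 lower (7 and 1 without the block). Over all genes tested the shares were 14.2% and 12.1%, also for the lists that follow here. Icam1, the ligand of leukocyte integrins, was at 187 and 322 CPM at 1 h and 592 and 781 CPM at 3 h, a log2 change of 1.49 ± 0.26 (SE; adjusted p = 0.000247) that was not called without the block (adjusted p = 0.115). Icosl, a ligand that costimulates T cells, was at 8.87 and 19.4 CPM at 1 h and 56.6 and 74.4 CPM at 3 h. Of 22 chemokines, 7 were higher and 4 lower. Ccl5, a chemokine for T cells and monocytes, was at 33.8 and 29.2 CPM at 1 h and 158 and 151 CPM at 3 h and reached a mean of 498 CPM at 8 h, and Cx3cl1, the membrane-bound fractalkine, was at 82.2 and 95.99 CPM at 1 h and 340.0 and 338 CPM at 3 h. Of 30 cytokines and growth factors, 6 were higher and 9 lower. Tnf itself was near the limit of detection, at 2.45 and 3.66 CPM at 1 h and 0.791 and 0.286 CPM at 3 h, and its call (adjusted p = 0.000244) was lost without the 3 h library of set 2 or without both libraries of set 2 (adjusted p up to 0.259). Nos2, which encodes inducible nitric oxide synthase, had 6 reads over both libraries of 1 h, all in set 2, and was at 6.93 and 8.68 CPM at 3 h (log2 4.54 ± 0.49 (SE; adjusted p = 2.55e-08)). The size of this change rests on the 1 h library of set 2, since the other had no read.

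Of 29 cytokine and TNF family receptors, 19 were higher and 2 lower (10 and 1 without the block). For these and the next lists, the shares over all genes tested were 14.2% and 12.1%. Fas, a death receptor, was at 31.7 and 43.7 CPM at 1 h and 160.3 and 139 CPM at 3 h, Il13ra1, a chain of the interleukin 4 and 13 receptors, at 66.8 and 77.9 CPM at 1 h and 188 and 182 CPM at 3 h, and Osmr, the oncostatin M receptor, at 145 and 150.1 CPM at 1 h and 312 and 286 CPM at 3 h. Of 22 cell death and survival genes, 9 were higher and 7 lower, and this order turned to 5 and 6 without the block. Gsdmd, the pore-forming protein of pyroptosis, was at 13.02 and 13.3 CPM at 1 h and 41.8 and 35.1 CPM at 3 h, whereas Bcl2l1, which encodes the survival protein Bcl-xL, was at 73.8 and 70.6 CPM at 1 h and 41.95 and 50.6 CPM at 3 h. Of 19 complement and acute phase genes, 10 were higher and none lower (6 without the block), and C3, the central complement protein, was at 33.4 and 25.9 CPM at 1 h and 97.8 and 92.7 CPM at 3 h and at a mean of 399.9 CPM at 8 h.

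Many genes that fell lay outside the early group, which held only 1.13% of the genes tested. Of the 1647 lower genes 1550, and of the 242 that fell at least 2-fold 196, were not among the 154 early genes. Large counts were fixed beforehand by the small size of that group. Of the 242, 120 had their highest mean at 1 h, 76 at 0.5 h, 41 at 0 h and 5 at 8 h. In 138 of the 242 the 3 h mean was below 0.5 times the 0 h mean, and in 29 the 8 h mean was above 2 times the 3 h mean. Axin2, a target and inhibitor of Wnt signalling, was at 30.4 and 29.1 CPM at 1 h and 8.11 and 6.96 CPM at 3 h, after a mean of 8.97 CPM at 0 h and before one of 21.7 CPM at 8 h. Cdk5r1, which encodes an activator of the kinase Cdk5, was at 14.5 and 14.6 CPM at 1 h and 3.17 and 2.96 CPM at 3 h. In both genes both libraries of 1 h lay above both of 3 h. Of 39 cell cycle and mitosis genes, 14 were lower and 3 higher (median log2 -0.25), but 1 was lower and none higher without the block. Of 22 SRF-linked cytoskeletal genes, 7 were lower and none higher (3 without the block). Beside both lists, 12.1% of all genes tested were lower and 14.2% higher. Thbs1, which encodes the matrix protein thrombospondin 1, was at 2990.0 and 1777 CPM at 1 h and 1197 and 777 CPM at 3 h, so that the lower 1 h library was less than 2 times the higher 3 h library, and its call (log2 -1.25 ± 0.10 (SE; adjusted p = 9.74e-11)) was lost without the block (adjusted p = 0.146).

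Matrix, sterol and chaperone lists had few called members. Of 31 collagens and fibroblast matrix genes 2 were higher and 3 lower, of 24 cholesterol synthesis genes none was higher and 2 lower, and of 19 endoplasmic reticulum chaperones 1 was higher and 2 lower. Over all genes tested 14.2% were higher and 12.1% lower, and the small lists that follow are given as counts with no test. Glycolysis and hypoxia genes gave 2 higher and 5 lower of 28, amino acid and ATF4 stress genes 5 and 5 of 21, p53 target genes 2 and 4 of 19 in cells that lack p53, matrix proteases and inhibitors 3 and 5 of 23, antioxidant and metal-binding genes 6 and 1 of 20, and prostaglandin and nitric oxide synthesis 5 and 1 of 15.

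**Figure D3:**
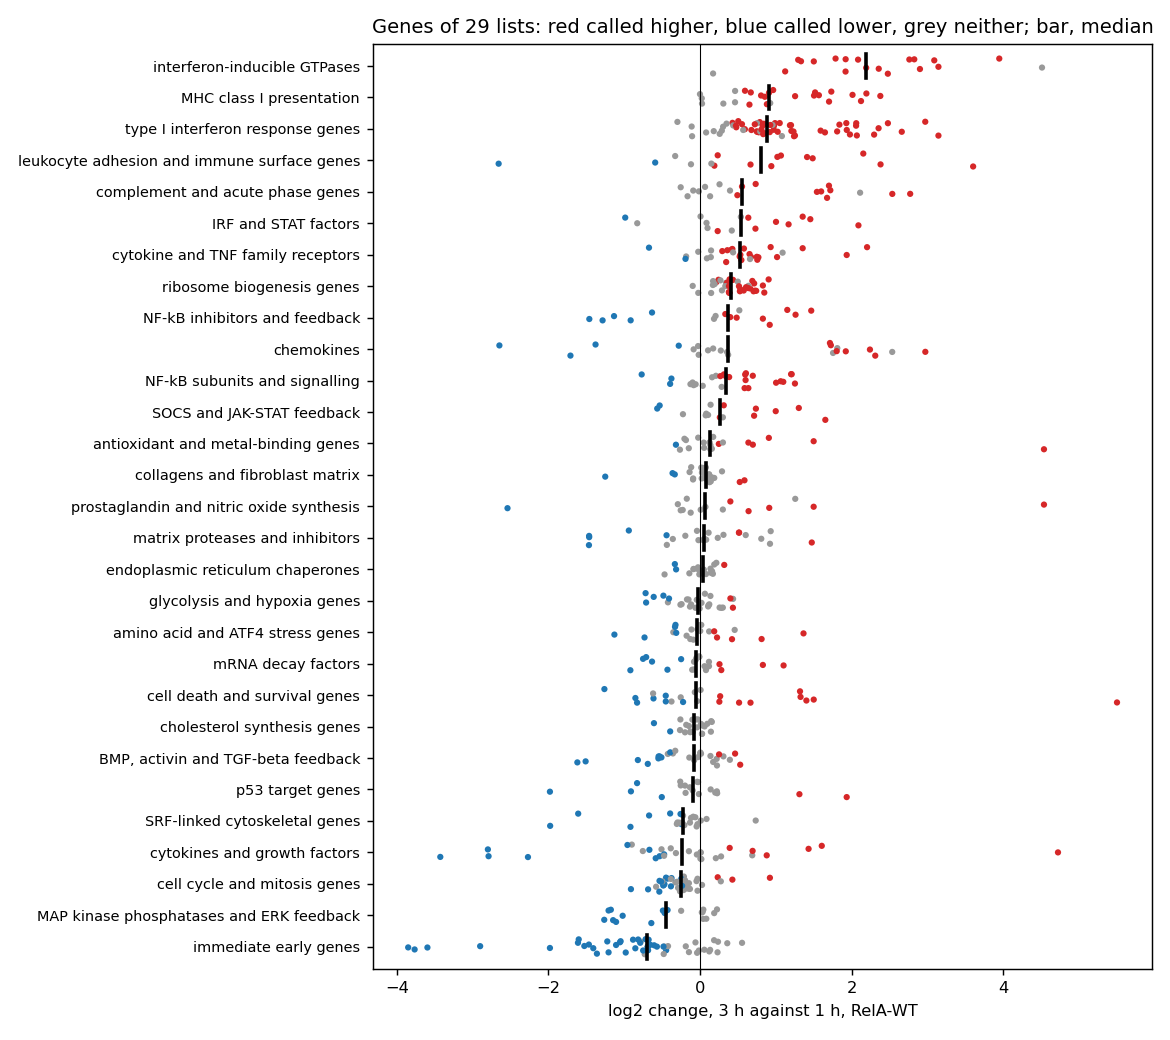
Log2 change from 1 h to 3 h in RelA-WT cells (x axis) for the measured genes of 29 lists (y axis), 1 point per gene, with a bar at each list's median. Interferon-inducible GTPases lie highest (median 2.19) and immediate early genes lowest (median -0.70), and Casp1 (5.50, in cell death genes) and Gbp10, which had no read at 1 h, are drawn at fitted values that are not bounds.

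EV cells show what happened between 1 h and 3 h without RelA. There 597 genes (4.37%) were higher at 3 h and 570 (4.17%) lower, against 101 and 48 without the block. Over the 396 genes that rose at least 2-fold in RelA-WT cells, the median log2 change was 1.56 in RelA-WT and 0.24 in EV, and 42 of them were also called higher in EV. The change itself was more upward in RelA-WT than in EV for 478 genes (3.50%) and more downward for 309 (2.26%). Without the block these were 175 and 79, and without 1 or both RelA-WT libraries of a set 280 to 390 and 140 to 228. With the block, the more upward changes included 176 of the 396 genes that rose at least 2-fold. The more downward ones included 82 of the 242 that fell at least 2-fold. Both lists were chosen in the RelA-WT libraries that enter the difference. Of the 97 early genes that fell, 61 fell further than in EV, where their median log2 change was 0.00 against -0.97 in RelA-WT. The 97 were likewise chosen by their fall in these RelA-WT libraries, which favours a larger fall there. A gene with almost no message in EV can hardly pass this test: Cxcl2 was at 0 and 0 CPM at 1 h and 0 and 0.0808 CPM at 3 h in EV.

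Inhibitors and first-wave genes went different ways in EV. Nfkbia was at 31.1 and 30.5 CPM at 1 h and 42.1 and 37.6 CPM at 3 h in EV, and its changes differed by -1.49 ± 0.22 (SE; adjusted p = 0.00013). Tnfsf9 was at 1.35 and 2.02 CPM at 1 h and 1.08 and 2.42 CPM at 3 h in EV, a difference of -3.56 ± 0.44 (SE; adjusted p = 8.57e-07). Zfp36 was at 13.7 and 17.3 CPM at 1 h and 39.8 and 60.99 CPM at 3 h in EV, where it rose by 1.71 on the log2 scale (adjusted p = 1.79e-05), a difference of -2.46 ± 0.26 (SE; adjusted p = 1.36e-06). Nr4a1 fell in EV as well, from 293 and 141 CPM to 67.5 and 93.8 CPM, and its fall in RelA-WT was larger by -2.53 ± 0.50 (SE; adjusted p = 0.00283). That difference, and those of Tnfaip3 and Sele, were not called under every alternative (adjusted p up to 0.066, 0.15 and 0.0645).

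Late genes differed in how far they rose in EV. Nr3c2 was at 5.79 and 3.03 CPM at 1 h and 2.34 and 1.29 CPM at 3 h in EV, and the changes differed by 4.97 ± 0.46 (SE; adjusted p = 1.09e-08). Parp14 was at 36.9 and 33.5 CPM at 1 h and 34.2 and 55.6 CPM at 3 h in EV, a difference of 2.25 ± 0.36 (SE; adjusted p = 0.00034), and Stat5a at 22.6 and 22.1 CPM at 1 h and 21.97 and 20.9 CPM at 3 h, a difference of 1.53 ± 0.17 (SE; adjusted p = 1.24e-07). Cd274 rose in EV too, from 2.51 and 3.2 to 10.98 and 15.7 CPM, and the difference of 1.39 ± 0.36 (SE; adjusted p = 0.0146) was lost under other settings (adjusted p up to 0.217). Rsad2 rose by 1.78 on the log2 scale in EV (adjusted p = 0.00345), and the larger rise in RelA-WT was not called as a difference (adjusted p = 0.105). Cxcl10 rose from 31.9 and 34.3 to 100.1 and 136 CPM in EV, by 1.84 ± 0.19 on the log2 scale, beside 1.804 ± 0.15 in RelA-WT, while its level at 3 h in RelA-WT was more than 10 times higher.

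Ribosome biogenesis genes were another list of late-start genes. Of 36 measured, 24 were higher in RelA-WT cells and none lower, with a median log2 change of 0.41 in RelA-WT and 0.43 in EV, and no member's change differed between them. Over all genes tested, 14.2% were higher and 12.1% lower in RelA-WT, and 478 and 309 changes differed in the 2 directions. Heatr1, a factor of ribosomal RNA processing, was at 46.8 and 54.9 CPM at 1 h and 91.2 and 92.9 CPM at 3 h in RelA-WT (log2 0.85 ± 0.15) and changed by 0.70 ± 0.15 in EV, a difference of 0.15 ± 0.22 (SE; adjusted p = 0.863). Wdr43, another such factor, was at 94.9 and 102 CPM at 1 h and 189 and 180.3 CPM at 3 h.

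**Figure D4:**
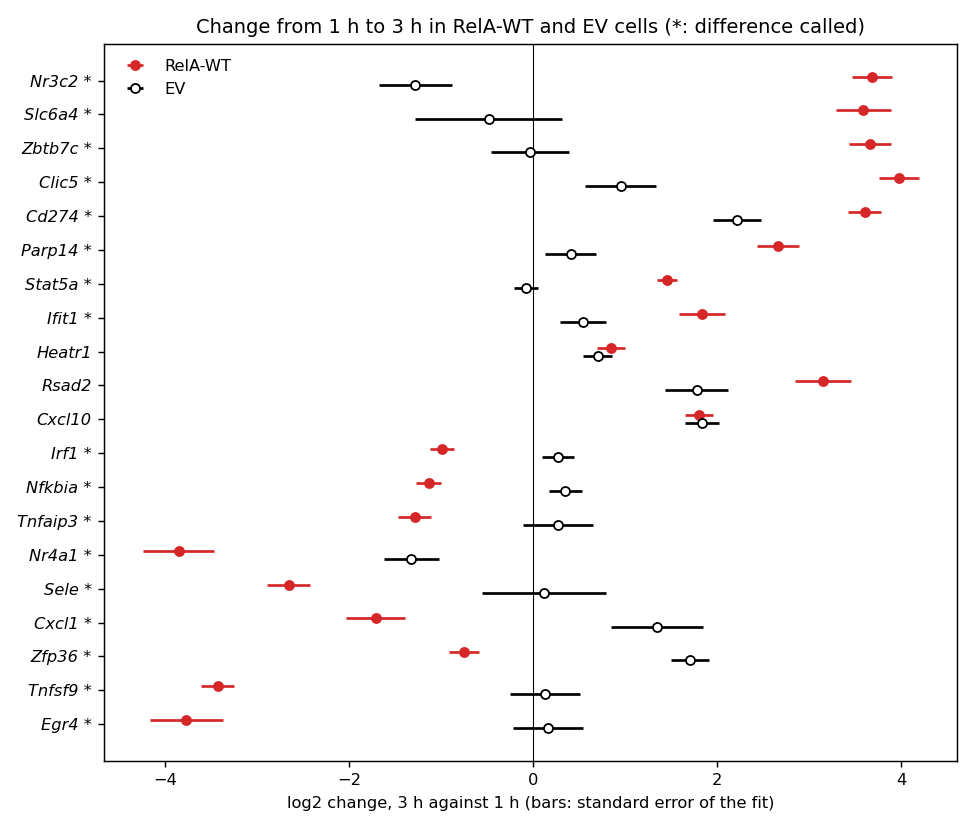
Log2 change from 1 h to 3 h (x axis) of 20 genes (y axis) in RelA-WT (filled) and EV (open) cells, with bars of 1 standard error of the fit over 2 libraries per group and time. An asterisk marks a difference called between them, and Heatr1, Rsad2 and Cxcl10 carry none.

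Cells with RelA-dTAD, by its name a RelA without its transactivation domains (TA1 and TA2), gave counts near those of EV. There 457 genes (3.34%) were higher at 3 h and 373 (2.73%) lower, and the change was more upward in RelA-WT than in RelA-dTAD for 425 genes (3.11%) and more downward for 291 (2.13%) (132 and 52 without the block). The medians over the genes that rose and fell at least 2-fold in RelA-WT were 0.42 and -0.33 in RelA-dTAD. RelA-dTA1, by its name without TA1 alone, gave 1838 genes (13.5%) higher and 1437 (10.5%) lower, and medians of 1.36 and -0.81. Between RelA-WT and RelA-dTA1, 684 of 13665 genes had an unadjusted p under 0.05 for the difference in change. That is about the number to be found if no gene differed. With 2 libraries per group and time differences can be missed, so this count does not show that the changes were alike. After adjustment, the change was more upward in RelA-WT for 3 genes (0.022%) and more downward for 25 (0.183%). Leaving out 1 or both RelA-WT libraries of a set moved these to 1 to 3 and 6 to 19.

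Of the 97 early genes that fell, 11 fell further in RelA-WT than in RelA-dTA1, among them Tnfsf9, Sele, Cxcl2, Irf1 and Pim1. The choice of the 97 by their fall in RelA-WT favours a larger fall there. Sele was at 61.1 ± 24.4 CPM at 1 h and 49.2 ± 18.98 CPM at 3 h in RelA-dTA1 (mean ± SD, n = 2), against 447 and 72.03 CPM in RelA-WT. Cxcl2 was at 3.1 ± 0.893 CPM and 2.43 ± 1.62 CPM, Irf1 at 463 ± 108 CPM and 447 ± 45.6 CPM, and Tnfsf9 at 7.77 ± 1.52 CPM and 4.99 ± 2.37 CPM. The differences between the changes were -2.36, -2.44, -0.95 and -2.90 on the log2 scale (adjusted p = 0.00118, 0.00481, 0.0317 and 1.24e-07). Of these 4 calls, that of Tnfsf9 alone held in each alternative run (adjusted p up to 0.0145). Without the block those of Sele, Cxcl2 and Irf1 were lost (adjusted p = 0.198, 0.901 and 0.319), as was that of Pim1 (adjusted p = 1). That of Irf1 was also lost when any 1 of the 4 RelA-WT libraries was left out (adjusted p up to 0.463 over its alternatives), that of Cxcl2 without the 3 h library or both libraries of set 2 and that of Pim1 without both libraries of set 1. At 3 h the RelA-dTA1 levels of these 4 genes were closer to those of RelA-WT than at 1 h. Among late genes, Nr3c2 rose less in RelA-dTA1, to 8.41 ± 5.4 CPM at 3 h, a difference of 2.32 (adjusted p = 0.000761; 0.0617 without the block), while Ifit1 and Cd274 reached 1135 ± 71.1 CPM and 72.2 ± 5.91 CPM.

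The 7 constructs with 1 library per time have no replicate check, their mutations are not spelled out in the labels, and their medians are given as a description. Over the 283 late-start genes that rose at least 2-fold in RelA-WT, the median log2 change was 1.23 in each set of RelA-WT, 1.28 in RelA-TA2_S467A, 0.955 in RelA-TA2_CI and 1.03 in RelA-TA2_CI_S467A. It was 0.425 in RelA-TA2_CI-dTA1, 0.375 in RelA-TA2_CI_S467A-dTA1, 0.273 in RelA-DB and 0.0945 in RelA-dCterm, beside 0.152 and 0.209 in EV. Over the 97 early genes that fell, it was -1.03 and -0.874 in RelA-WT, -0.836 in RelA-TA2_S467A, -0.469 in RelA-TA2_CI, -0.337 in RelA-TA2_CI_S467A and between -0.109 and -0.0654 in the other 4. RelA-WT took part in the choice of these genes and the other constructs did not, which favours RelA-WT in both orders.

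**Figure D5:**
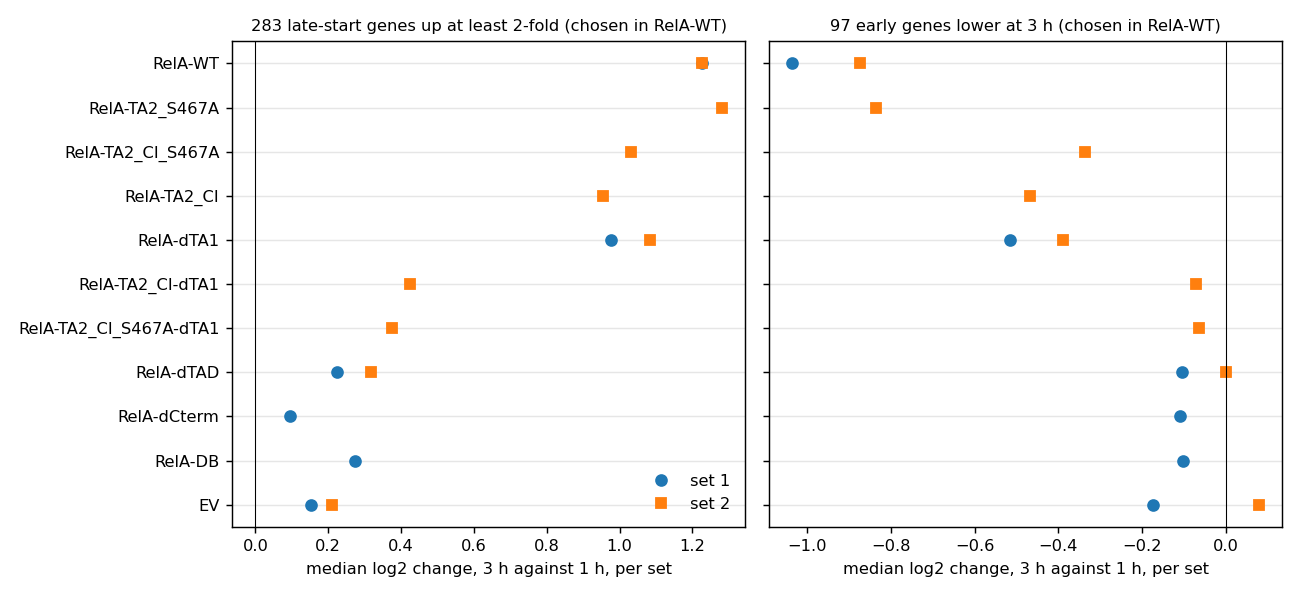
Median log2 change from 1 h to 3 h (x axes) over 283 late-start genes (left) and 97 early genes (right), both chosen in RelA-WT, in each of 11 constructs (y axis), with 1 point per set. In the left panel RelA-WT and RelA-TA2_S467A lie above the other constructs and RelA-dCterm lowest (0.0945), and in the right panel RelA-WT lies lowest, with RelA-TA2_S467A (-0.836) next to it.

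The groups also differed in a property that no rule used. The median span of a gene from its first to its last base (mm10, from the deposited table) was 9342 bases for the 97 early genes that fell, 25685 bases for the 283 late-start genes and 23400 bases for all genes tested. For the 196 genes that fell at least 2-fold without being early it was 30150 bases. Every gene tested had a span, and these medians are a description.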

How the data were processed

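Polyadenylated RNA was sequenced as stranded libraries (12 PCR cycles; single reads of 50 bases; both per the labels' protocols). The values the authors deposited are whole read counts per gene, with gene length in bases as another deposited column that was used for description. Per the submitters' processing notes, cutadapt 1.9.1, STAR, featureCounts 1.5.0 and DESeq2 were used with mm10. Whether reads were counted by strand is not given in the sources used here, so overlapping and antisense genes cannot be told apart. Symbols were found for 45143 of 45706 identifiers (98.77%).

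CPM values are reads of a gene over the total of its library, with totals adjusted by TMM scaling over all 75 libraries. Genes that passed filterByExpr were fitted in edgeR 4.0.16 (R 4.3.3) with TMM scaling, 1 mean per construct and time and the set as a block, over the 40 libraries of the 4 replicated constructs, which lend their spread to the RelA-WT groups (19 residual degrees of freedom, common dispersion 0.00381). Changes were tested with the robust quasi-likelihood test, adjusted by Benjamini-Hochberg over 13665 genes, at 0.05. Library totals were 4422396 to 6915919 reads in set 1 and 10440202 to 22908738 in set 2, and the entry Gm42418 took 0.00498% to 0.00632% of the reads of set 1 and 0.881% to 1.26% of those of set 2 in the 4 libraries compared. Replicate numbers name the sets, per the labels, and libraries with 1 number deviated together from the means of their groups, at correlations of 0.357 to 0.668 in 190 pairs of groups (0.512 between 1 h and 3 h of RelA-WT), so the numbers pair the samples. For genes with 1 to 3 reads in a group a ratio has a 95% exact interval, and for 0 reads a floor of 3 reads over the group, both for counting error only.

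The gene lists, groups and tests were chosen with earlier results of these data known. Named without further remark are the 12 largest rises and falls with at least 5 CPM, up to 4 called members of each list in each direction, the 6 most abundant late-start and early falling genes, the 6 largest differences from EV in each direction, and Rela, Nfkbia, Tnfaip3 and Irf1. Further genes, such as Vcam1, Cxcl10, Flt1 and C3, are members of a list or group that is described. Alternatives were DESeq2 1.42.0, RLE scaling, 2 other filters, no block or a block per construct, RelA-WT libraries only, and leaving out libraries. The fit was tested on data simulated for the change from 1 h to 3 h over 13404 genes: it recovered 8 of 50 genes raised 1.5-fold, 38 of 50 raised 2-fold, 50 of 50 raised 4-fold and 50 of 50 at 0.25 times, with 7 false calls. The simulation gave every gene the same dispersion, larger than the common dispersion of 0.00381 in the fit, and changed only genes above 5 CPM. These shares are therefore not the power of the fit to the data themselves.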

Additional observations from a re-analysis of the deposited data

Results flagged for a closer look

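The changes from 1 h to 3 h of 27 of 40 genes, named by size of change, abundance, identity or size of difference from EV, differed between RelA-WT and EV cells by the test of the difference itself (edgeR's quasi-likelihood test, adjusted p under 0.05), beside 3.50% higher and 2.26% lower over all genes tested. On the log2 scale the change was higher in RelA-WT by 4.97 for Nr3c2, 4.07 for Slc6a4, 3.95 for Nrxn2, 3.698 for Zbtb7c, 3.43 for Kcnh1, 3.37 for Rcsd1, 3.07 for Npas2, 3.02 for Clic5, 2.71 for Dll1, 1.66 for Ifit1bl1, 1.39 for Cd274, 1.301 for Ifit1 and 0.58 for Il6st. The difference, RelA-WT minus EV, was -3.93 for Egr4, -3.56 for Tnfsf9, -3.06 for Cxcl1, -2.77 for Sele, -2.54 for Egr3, -2.53 for Nr4a1, -2.35 for Edn1, -2.24 for Fosb, -1.56 for Tnfaip3, -1.49 for Nfkbia, -1.32 for Cdk5r1, -1.26 for Irf1, -1.21 for Axin2 and -0.73 for Thbs1. Of the 27 differences, 18 were called without the set block and 12 under every alternative run. Nrxn2, Kcnh1 and Rcsd1 were named only because this difference was large, so their calls were fixed by the choice. Most of the other genes had been picked for a large change in the RelA-WT libraries that enter the test, so the share of 27 in 40 supports nothing.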

How the results depend on the processing

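Leaving out the set block, or both RelA-WT libraries of a set, moved the counts far. Without the replicate block, RelA-WT had 1071 genes higher and 627 lower at 3 h than at 1 h, EV had 101 and 48, and 348 were higher at 1 h than at 0 h in RelA-WT (614 with the block), 964 were late-start and 62 early genes fell. The differences of RelA-WT from EV then numbered 175 and 79, from RelA-dTAD 132 and 52, and from RelA-dTA1 0 and 2, with 3 and 25 in the main fit. With a replicate block per construct, 40 changes were lower in RelA-WT than in RelA-dTA1. DESeq2 with the block found 1 that was higher, and no filter on low counts 7 that were higher and 81 that were lower. RLE scaling and a stricter filter kept each of these counts within 1.5 times, as did a fit of RelA-WT libraries only for the counts within RelA-WT and fold limits of 1.2 or 2 for the count of late-start genes.
Leaving out 1 RelA-WT library, or both of a set, gave 1034 to 1576 genes higher and 665 to 1042 lower at 3 h, 358 to 611 higher at 1 h than at 0 h, 933 to 1422 late-start genes and 75 to 92 early genes that fell. It gave 280 to 390 and 140 to 228 differences from EV, 242 to 363 and 113 to 197 from RelA-dTAD, and 1 to 3 and 6 to 19 from RelA-dTA1. Some of these fits leave 1 library in a group, which is then assumed to vary like the others. Of 178 named genes that were called, 104 kept the call in each alternative that gave a value (13, or 12 for 10 genes), 48 lost it without the block, 9 in DESeq2, and none changed direction. Fewer reads in set 1 limit what could be called among genes near 1 CPM. The causes of these shifts were not tested.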
